A study of Homo sapiens with 6 samples.

Results

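The genes described are those of the proteasome: every gene whose symbol is PSM, a letter from A to G and a number, plus the assembly factor POMP and the transcription factor NFE2L1. The rule goes by name and uses no measured value, though members and lists were chosen with earlier results of these data known. Of the 18404 genes in the table, 47 met the rule. PSMC5, PSMD7 and PSMD13 also have such symbols and were not analysed here. Affymetrix arrays with 1 value per transcript cluster measured RNA of BE(2)-C, a human neuroblastoma cell line in which MYCN is amplified, after 24 h in 5 µM BIX01294 (3 arrays) and after 24 h in 0.05% DMSO, the solvent (3 arrays). BIX01294 inhibits EHMT2 and EHMT1, enzymes that methylate lysine 9 of histone H3. All cells were grown in medium with dialyzed serum, the arrays come from 1 cell line, and for the treated samples the labels give no DMSO content. The submitters call the 3 samples of a treatment independent, without saying whether each was a separate culture, so the p-values measure the spread between these samples. Of 11 listed genes of adrenergic neuroblastoma cells, 10 were measured, and all 10 lay above the upper quartile of every array, MYCN among them. In BIX01294, 4 of the 10 were called lower (STMN2 by -0.46, GATA3 by -0.23, PHOX2A by -0.20 and CHGA by -0.19 on the log2 scale) and 1 higher (ISL1, by 0.34); their part in the results was not tested. Of 9 measured markers of leukocytes, fibroblasts, endothelium and epithelium, 6 lay below the lower quartile of every array, including PTPRC, which defines leukocytes. Neither fibroblast marker was among them. COL1A1 (mean 7.80 in both groups) and COL3A1 (6.34 in BIX01294 and 6.35 in DMSO) lay between the quartiles of every array. CD68, a lysosomal protein abundant in macrophages, was the one of these 9 that rose, by 0.55 (8.43 in BIX01294 and 7.88 in DMSO, means of 3 arrays).

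The proteasome degrades proteins that carry a ubiquitin chain. Its barrel-shaped core particle is built of PSMA subunits, which form the outer alpha rings and the gate, and PSMB subunits, which form the inner beta rings and hold the proteolytic sites. The regulatory particle caps the barrel. Its base holds PSMD1, PSMD2, PSMD4 and a ring of PSMC ATPases that unfold the substrate. Its lid holds other PSMD subunits, among them the deubiquitinase PSMD14. POMP and the PSMG proteins chaperone assembly of the core, and PSMD5, PSMD9 and PSMD10 assembly of the base. NFE2L1, also called TCF11 or NRF1, is a transcription factor of the endoplasmic reticulum membrane. It is pulled out by the ATPase VCP and is itself degraded by the proteasome; when proteasome activity falls short, its processed form enters the nucleus and activates the proteasome genes.

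NFE2L1 and its partners of the small MAF family bind the antioxidant response element, so the promoter windows of the members were searched for its core, TGACNNNGC, on both strands. A window ran from 250 bases before to 50 bases after the start of the gene in RefSeq (GRCh38.p14), and 41 of the 47 members had one in the table used. The windows of 13 members (31.7%) held the letters at least once, compared with 14.6% of the windows of 14230 tested genes. Of the 25 windows of members that rose after BIX01294, 7 (28.0%) held them, and of the other 16 windows 6 (37.5%) did. Among 1919 tested genes that rose and had a window, 18.2% held the letters. Among the members' core particle subunits 1 of 11 windows held a match, and among their regulatory particle subunits 4 of 13. The 6 members that passed the test and had a match before the start are shown 5′ to 3′ on the strand of the gene, with up to 40 bases on either side and the match in capitals, because they let a reader set the letters beside the changes given further on. The first 5 rose and PSME1 fell, so the letters stand in front of genes that moved in both directions.
PSMD12 (chr17:67366694-67366782, - strand): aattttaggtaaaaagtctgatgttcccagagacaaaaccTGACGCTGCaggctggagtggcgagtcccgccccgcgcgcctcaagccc
PSMG1 (chr21:39183586-39183674, - strand): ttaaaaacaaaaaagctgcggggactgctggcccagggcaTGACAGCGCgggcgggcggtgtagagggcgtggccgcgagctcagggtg
PSMD3 (chr17:39980730-39980806, + strand): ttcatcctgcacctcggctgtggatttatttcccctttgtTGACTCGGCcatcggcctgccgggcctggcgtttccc
PSMD9 (chr12:121888601-121888736, + strand): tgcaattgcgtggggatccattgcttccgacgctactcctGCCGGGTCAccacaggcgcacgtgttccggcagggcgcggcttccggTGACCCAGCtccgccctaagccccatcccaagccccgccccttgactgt
PSME4 (chr2:53970994-53971067, - strand): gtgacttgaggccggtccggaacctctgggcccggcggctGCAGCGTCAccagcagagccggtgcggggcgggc
PSME1 (chr14:24136068-24136156, + strand): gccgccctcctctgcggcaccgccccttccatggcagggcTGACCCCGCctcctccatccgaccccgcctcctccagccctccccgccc
In PSMD12 the match began 165 bases before the start, in PSMG1 183, in PSMD3 37, in PSME4 34 and in PSME1 86. PSMD9 held 2 matches, 149 and 102 bases before the start. In PSMD9 and PSME4 a match lies on the opposite strand and is printed as its reverse complement. A match of these letters is a description of the sequence; binding was not measured.

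After 24 h of BIX01294 the transcripts of most standard proteasome subunits were modestly higher, and NFE2L1, their transcription factor, was lower. Of the 47 members, 29 rose, 2 fell and 16 did not pass the test. Over all genes, 12.9% rose and 10.7% fell; among the 4601 genes at or above the 75th percentile of mean level, where 39 of the members lie, 27.0% rose and 13.2% fell, and of those 39 members 28 rose and 2 fell. The members that rose did so by 0.21 to 0.66 on the log2 scale (1.16-fold to 1.58-fold), no member changed by as much as 2-fold, and the median change of the 47 was 0.24, beside -0.01 for all genes. The test was limma on the deposited log2 values, two-sided, with p-values adjusted over the 18404 genes by Benjamini-Hochberg and called below 0.05, and every change is BIX01294 minus DMSO. The BIX01294 and DMSO arrays did not overlap in 39 members, 33 higher and 6 lower; over all genes 40.1% did not overlap, 21.4% higher and 18.7% lower. A ratio of RNA levels on these arrays is relative to the other transcripts, and proteasome protein or activity was not measured.

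**Figure D1:**
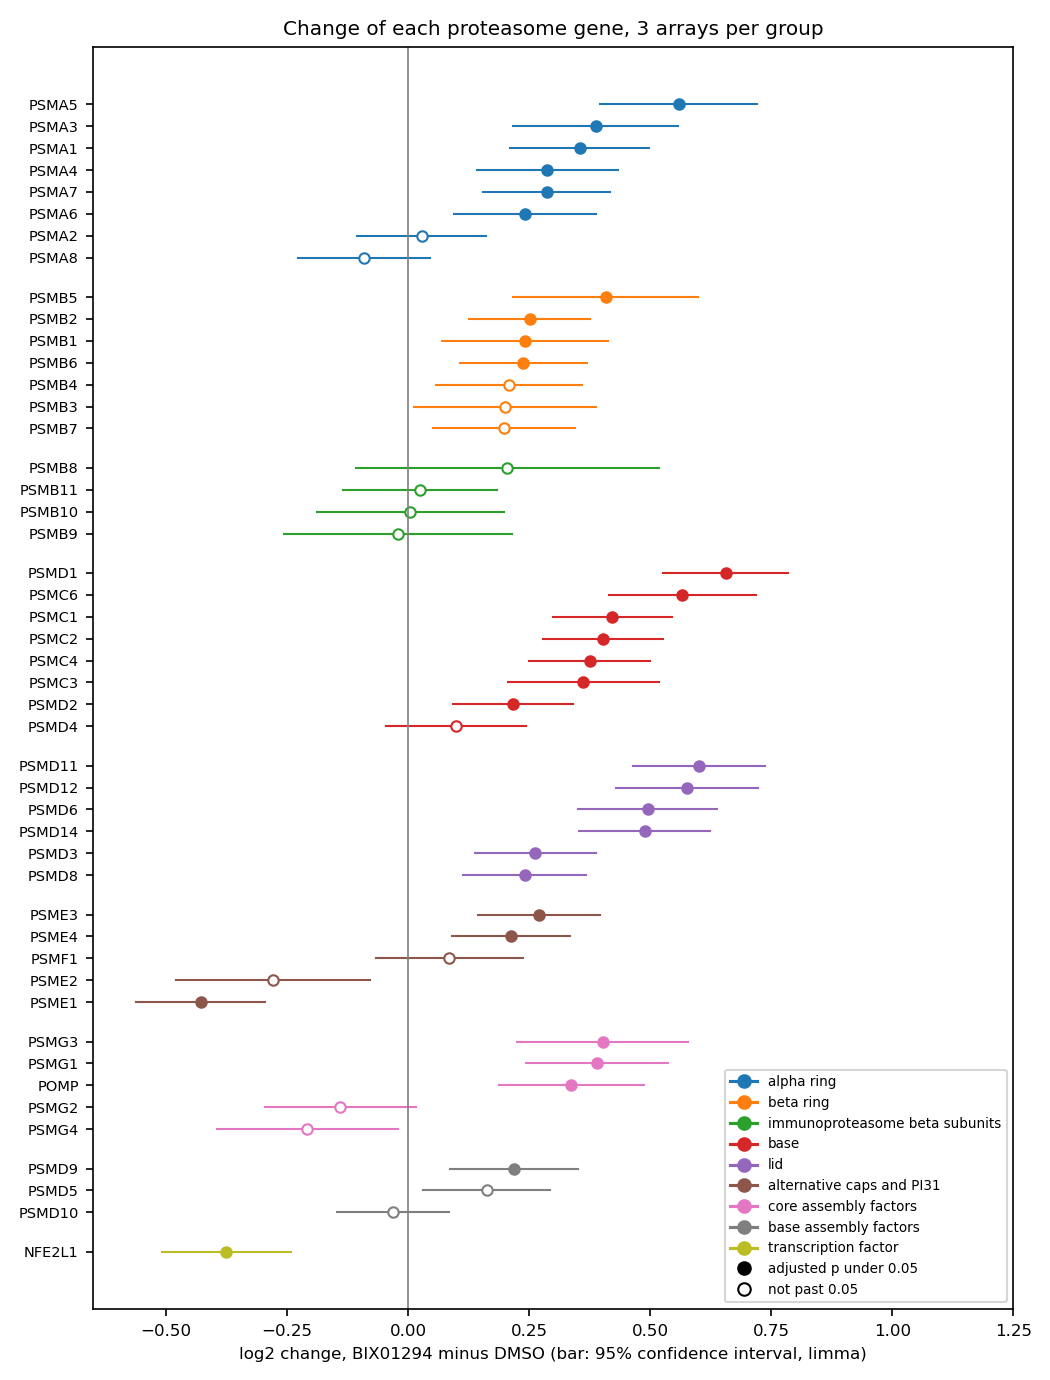
Log2 change of each of the 47 proteasome genes (BIX01294 minus DMSO, 3 arrays per group), ordered by role group from top to bottom, with the 95% confidence interval of the limma fit. Filled points passed an adjusted p of 0.05; nearly all subunits of the alpha ring, beta ring, base and lid lie right of 0, while PSME1 and NFE2L1 are the filled points on the left.

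The regulatory particle held the largest rises. Of its 14 measured subunits within the naming rule 13 rose and none fell, and the median change was 0.41. Outside the rule, its ubiquitin receptor ADRM1 rose and its small lid subunit SEM1 did not pass the test; their values are given with the proteins that bind the proteasome. PSMD1, the large scaffold of the base, measured 11.58, 11.60 and 11.62 in the BIX01294 arrays, against 10.96, 11.00 and 10.88 in the DMSO arrays. Every BIX01294 array lay above every DMSO array by a wide margin, and the rise was 1.58-fold, a log2 change of 0.66 ± 0.056 (SE) with an adjusted p of 0.000213 in limma. All 5 measured ATPases of the base rose, by 0.36 to 0.57. PSMC6, one of them, measured 11.03, 10.88 and 10.89 in the BIX01294 arrays, against 10.37, 10.43 and 10.29 in the DMSO arrays, a 1.48-fold rise. The other row of PSMC6 in the table, which was dimmer, rose less, by 0.38. The size of the PSMC6 rise, and the top of the ATPase range, therefore depend on the row used. PSMC6 and PSMC1 are genes of chromosome 14, whose other members have row numbers from 7973369 to 7978123. The dimmer row of PSMC6 (7974380) lies within these numbers. The rows used for PSMC6 (8150870) and PSMC1 (8080923) lie far outside them, and PSMC1 had no other row to compare. Where on the genome the probes of these rows lie was not examined, so the rises of both genes are those of the rows used. PSMC1 rose 1.34-fold, PSMC2 1.32-fold, PSMC4 1.30-fold and PSMC3 1.29-fold, with the highest adjusted p among them that of PSMC3 (0.00647 in limma), and for each of the 4 genes the BIX01294 arrays lay above the DMSO arrays. PSMD2, the other large scaffold of the base, changed by 0.22 ± 0.054 (SE) (adjusted p 0.0209 in limma), and lost its call without BIX01294 replicate 1, 2 or 3 or DMSO replicate 2 (adjusted p 0.0514 to 0.0630). PSMD4, a ubiquitin receptor that binds the chain on the substrate, was the 1 of these 14 that did not pass: it measured 8.51, 8.42 and 8.40 in the BIX01294 arrays, against 8.39, 8.39 and 8.25 in the DMSO arrays. Its groups did not quite overlap, and its 95% interval ran from -0.04 to 0.24.

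All 6 measured lid subunits within the naming rule rose. PSMD11, a scaffold subunit of the lid, measured 11.38, 11.42 and 11.41 in the BIX01294 arrays, against 10.79, 10.89 and 10.73 in the DMSO arrays, a 1.52-fold rise (log2 change 0.60 ± 0.059 (SE), adjusted p 0.000373 in limma). PSMD12, another scaffold subunit of the lid, measured 10.19, 10.06 and 10.14 in the BIX01294 arrays, against 9.59, 9.61 and 9.47 in the DMSO arrays, a 1.49-fold rise. The 3 BIX01294 arrays of both genes were close to each other and clear of all DMSO arrays. PSMD14, the deubiquitinase that cuts the ubiquitin chain from the substrate, measured 10.64, 10.54 and 10.54 in the BIX01294 arrays, against 10.11, 10.12 and 10.03 in the DMSO arrays, a 1.40-fold rise with an adjusted p of 0.000879 in limma. PSMD6 rose 1.41-fold. PSMD3 and PSMD8 rose least of these 6, 1.20-fold and 1.18-fold, again with no overlap between the groups. PSMD8 lost its call without BIX01294 replicate 1 or DMSO replicate 1 (adjusted p 0.0534 and 0.0582).

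Of the 14 standard subunits of the core particle, 10 rose and none fell, with a median change of 0.25, and all 14 had a positive change. In the alpha ring, 6 of the 7 standard subunits rose. PSMA5 measured 10.58, 10.45 and 10.46 in the BIX01294 arrays, against 9.93, 10.04 and 9.84 in the DMSO arrays, a 1.47-fold rise (log2 change 0.56 ± 0.071 (SE), adjusted p 0.00110 in limma). It was the largest rise in the core, and its groups were well apart. PSMA3 rose 1.31-fold, PSMA1 1.28-fold, PSMA4 and PSMA7 1.22-fold each and PSMA6 1.18-fold. PSMA6 kept its call only without BIX01294 replicate 2 among the 6 arrays left out in turn, with an adjusted p of 0.0590 to 0.0761 without any of the others. PSMA2 was the standard subunit of the ring that did not pass: it measured 12.15, 12.04 and 12.07 in the BIX01294 arrays, against 12.11, 12.06 and 12.01 in the DMSO arrays. Its groups overlapped, and its 95% interval of -0.10 to 0.16 lies below that of PSMA5 (0.40 to 0.72). PSMA8, the testis-specific alternative to PSMA7, lay below the lower quartile of every array, at 3.37 ± 0.03 in BIX01294 and 3.46 ± 0.08 in DMSO (SD, n = 3 each), and was not shown to be above background.

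In the beta ring 4 of 7 standard subunits rose and the other 3 narrowly missed the threshold or had overlapping groups. PSMB5 carries the chymotrypsin-like site, the main target of the drug bortezomib, and measured 11.63, 11.46 and 11.40 in the BIX01294 arrays, against 11.15, 11.16 and 10.96 in the DMSO arrays. Its groups did not overlap, and it rose 1.33-fold (log2 change 0.41 ± 0.083 (SE), adjusted p 0.00920 in limma). PSMB6, which carries the caspase-like site, measured 12.30, 12.21 and 12.17 in the BIX01294 arrays, against 12.00, 12.01 and 11.95 in the DMSO arrays. It rose 1.18-fold (adjusted p 0.0183 in limma), a call lost without BIX01294 replicate 1 or DMSO replicate 1 (adjusted p 0.0612 and 0.0518). PSMB7, which carries the trypsin-like site, measured 11.80, 11.75 and 11.74 in the BIX01294 arrays, against 11.59, 11.64 and 11.45 in the DMSO arrays. The BIX01294 arrays were all higher, but the change of 0.20 ± 0.064 (SE) did not pass (adjusted p 0.0572 in limma). Among the subunits without proteolytic activity, PSMB2 rose 1.19-fold and PSMB1 1.18-fold, PSMB1 only just (adjusted p 0.0488 in limma). PSMB1 lost its call without any one array except DMSO replicate 2 (adjusted p 0.0603 to 0.135). PSMB4 differed by 0.21 ± 0.066 (SE) with no overlap (adjusted p 0.0527 in limma). PSMB3 differed by 0.20 ± 0.082 (SE) with overlapping groups (adjusted p 0.123 in limma), and passed without BIX01294 replicate 3 (change 0.28, adjusted p 0.0444).

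**Figure D2:**
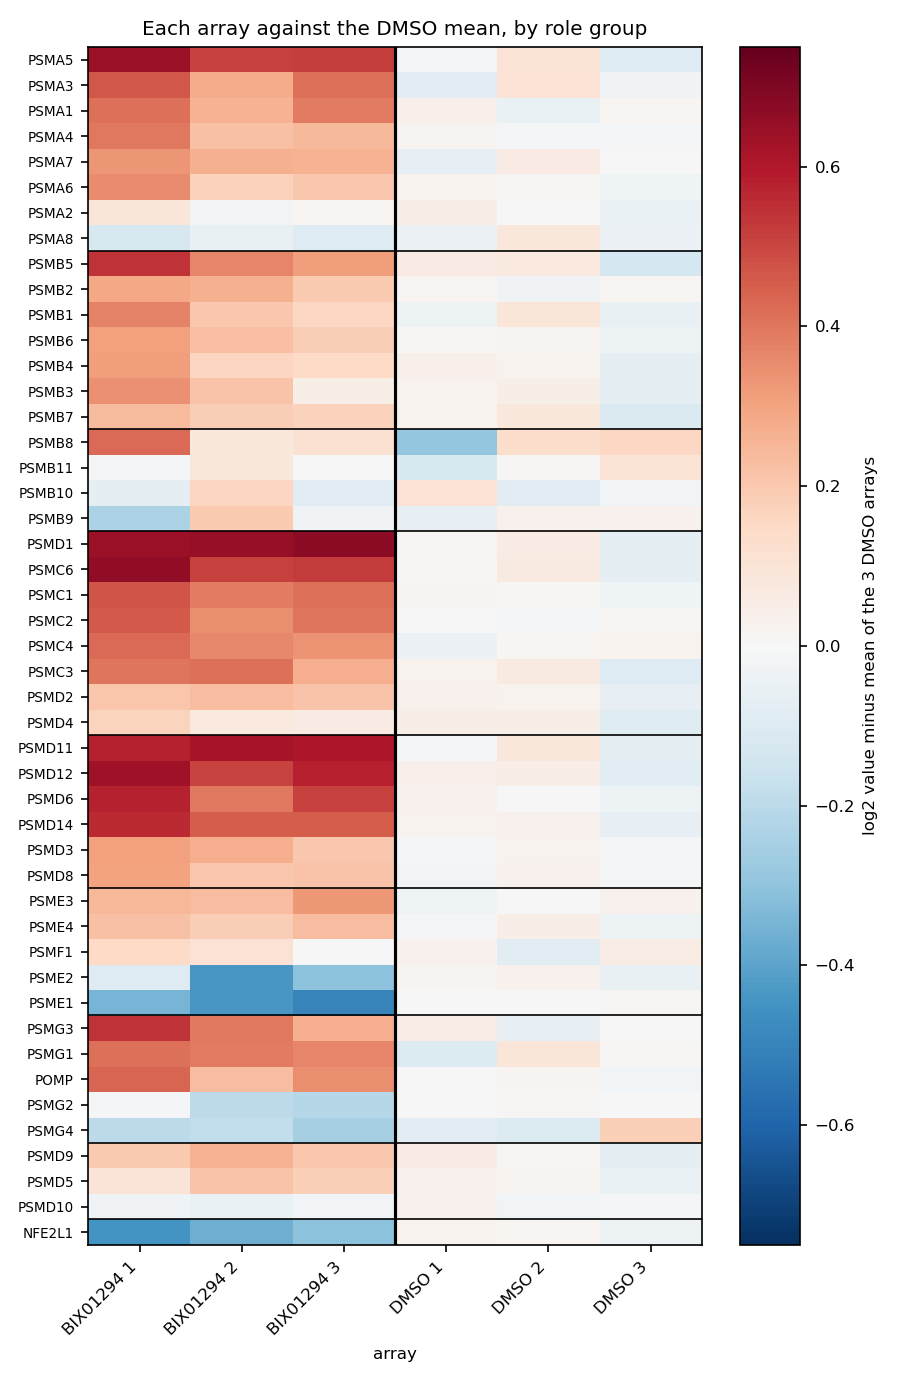
Each of the 47 members (rows, grouped by role and separated by lines in the order alpha ring, beta ring, immunoproteasome and thymus subunits, base, lid, alternative caps and PI31, core assembly, base assembly, NFE2L1) on each array (columns, BIX01294 left of DMSO), as the log2 value minus the mean of the 3 DMSO arrays. Apart from PSMA2, the standard subunits are red across all 3 BIX01294 arrays and deepest in BIX01294 replicate 1 for most of the core.

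The size of the shift differed between the treated arrays. Against the mean of the DMSO arrays, the median of the members was 0.31, 0.22 and 0.20 in the 3 BIX01294 arrays, and 0.02, 0.02 and -0.03 in the 3 DMSO arrays. BIX01294 replicate 1 was the highest of the treated arrays for all 14 standard core subunits and for 10 of the 14 cap subunits within the naming rule, whereas over all 18404 genes it was the highest for 30.8%, and for 46.7% of the 2379 genes that rose. Without that array 22 members rose and 3 fell, and the median change was 0.18 for the beta ring, 0.25 for the alpha ring, 0.36 for the base and 0.45 for the lid, compared with 0.24, 0.29, 0.39 and 0.49 with all arrays. The shift of the cap was more even, with medians of 0.46, 0.39 and 0.41 in the 3 BIX01294 arrays, and that of the standard core was 0.35, 0.22 and 0.20.

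**Figure D3:**
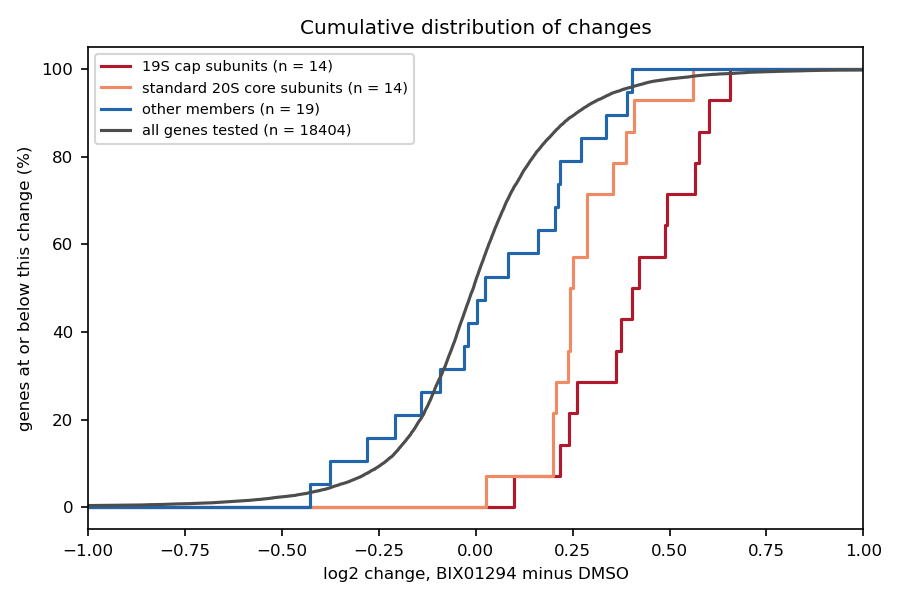
Cumulative share of genes (%) at or below a given log2 change (BIX01294 minus DMSO) for the 14 cap subunits within the naming rule, 14 standard core subunits, the 19 other members and all 18404 genes tested. The cap lies farthest right with a median of 0.41, the standard core follows with 0.25, and the other members spread to both sides of 0.

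The subunits that replace the standard proteolytic ones gave no call. PSMB8, PSMB9 and PSMB10 take the places of PSMB5, PSMB6 and PSMB7 in the immunoproteasome, a form induced by interferon gamma that makes peptides for class I presentation. PSMB8 measured 5.37, 5.03 and 5.06 in the BIX01294 arrays, against 4.66, 5.08 and 5.11 in the DMSO arrays, below the lower quartile on every array. PSMB9 measured 5.98, 6.41 and 6.19 in the BIX01294 arrays, against 6.16, 6.25 and 6.25 in the DMSO arrays. PSMB10 measured 7.13, 7.37 and 7.13 in the BIX01294 arrays, against 7.31, 7.12 and 7.18 in the DMSO arrays. All 3 had overlapping groups. The 95% intervals of their changes were -0.11 to 0.52 for PSMB8, -0.26 to 0.21 for PSMB9 and -0.19 to 0.20 for PSMB10. The interval of PSMB8 holds a rise as large as that of PSMB5. That of PSMB9 ends just below the change of PSMB6 (0.24), and that of PSMB10 at about the change of PSMB7 (0.20). The intervals of PSMB6 (0.11 to 0.37) and PSMB7 (0.05 to 0.34) overlap those of PSMB9 and PSMB10. PSMB11, the thymus-specific form, was also below the lower quartile of every array and differed by 0.02 ± 0.069 (SE). The change of PSMB5 minus that of PSMB8 was 0.20, that of PSMB6 minus PSMB9 0.26 and that of PSMB7 minus PSMB10 0.19, and in none of the 3 pairs were the differences on the BIX01294 arrays separate from those on the DMSO arrays. With 3 arrays against 3, a two-sided exact permutation test cannot go below p = 0.1, so it cannot show whether the changes within a pair differed.

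Genes of class I antigen processing work downstream of the immunoproteasome. On a list of 13 such genes 8 were measured, of which 1 rose and 0 fell, a count too small to set apart from the 12.9% of all genes that rose and the 10.7% that fell. The count moved to 1 higher and 2 lower after quantile normalization, 2 higher and 1 lower with array weights, 1 higher and 1 lower with an intensity trend and 0 higher with the mean of all rows. TAP2, a subunit of the peptide transporter, changed by 0.26 ± 0.069 (SE) (adjusted p 0.0283 in limma). It lost that call without any one array except DMSO replicate 2 (adjusted p 0.0530 to 0.0803) and with the mean of its rows (adjusted p 0.380). The class I light chain B2M differed by -0.16 ± 0.069 (SE) and did not pass (adjusted p 0.146 in limma), and it was called lower after quantile normalization, with array weights and with an intensity trend (adjusted p 0.0441, 0.0490 and 0.0280 in limma).

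The alternative caps split in direction. PSME1 and PSME2 form the interferon-inducible activator PA28 alpha-beta, which opens the core without ATP. PSME1 measured 9.60, 9.51 and 9.45 in the BIX01294 arrays, against 9.94, 9.94 and 9.95 in the DMSO arrays. All BIX01294 arrays were lower, and the fall was 1.35-fold (log2 change -0.43 ± 0.058 (SE), adjusted p 0.00153 in limma). PSME2 measured 10.10, 9.76 and 9.89 in the BIX01294 arrays, against 10.21, 10.23 and 10.14 in the DMSO arrays. Its BIX01294 arrays were also all lower, but they were spread out, and the change of -0.28 ± 0.087 (SE) missed the threshold (adjusted p 0.0514 in limma). Without BIX01294 replicate 1, its highest treated array, PSME2 passed, with a change of -0.37 and an adjusted p of 0.0122. PSME3, which forms the nuclear activator PA28 gamma, measured 12.24, 12.22 and 12.31 in the BIX01294 arrays, against 11.95, 11.98 and 12.02 in the DMSO arrays. It rose 1.21-fold (adjusted p 0.00884 in limma), with no overlap. PSME4, the nuclear activator PA200, measured 9.86, 9.83 and 9.88 in the BIX01294 arrays, against 9.64, 9.69 and 9.61 in the DMSO arrays, a 1.16-fold rise. It lost its call without BIX01294 replicate 1 or 3 or DMSO replicate 1 or 3 (adjusted p 0.0519 to 0.0742). PSMF1, the regulator PI31, differed by 0.08 ± 0.066 (SE) with overlapping groups (adjusted p 0.422 in limma).

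**Figure D4:**
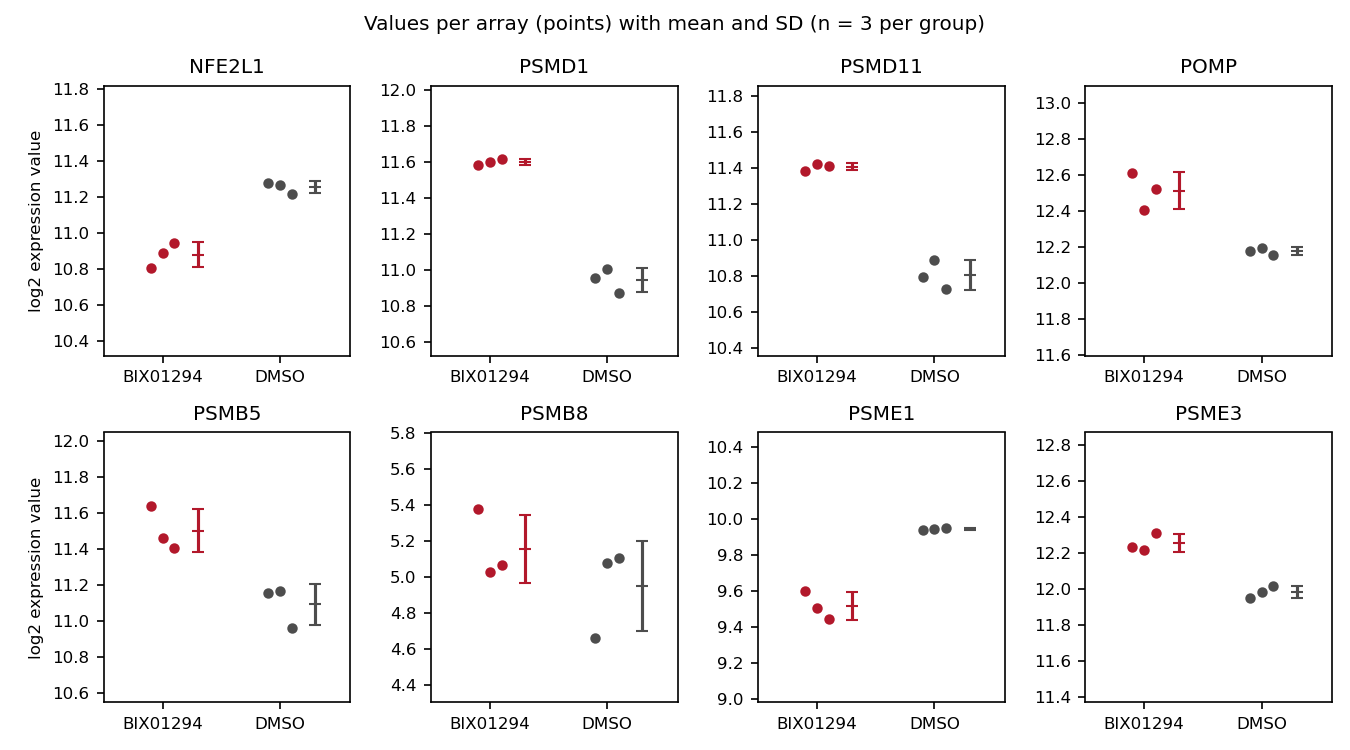
Log2 expression values of 8 members on each array (points), BIX01294 left and DMSO right, with the mean and SD beside them (n = 3 per group); every panel spans the same 1.5 units, so heights compare as changes and not as levels. NFE2L1 and PSME1 are lower in BIX01294, PSMD1, PSMD11, POMP, PSMB5 and PSME3 are higher, and the groups of PSMB8 overlap.

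Of the 8 assembly factors, 4 rose, none fell and 4 did not pass. For comparison, 12.9% of all genes rose and 10.7% fell. Among the 4601 genes of highest mean level, 27% rose and 13.2% fell. Whether the count of the assembly factors differs from these shares was not tested. POMP, which guides the beta ring and is degraded as the first substrate of the finished core, measured 12.61, 12.41 and 12.52 in the BIX01294 arrays, against 12.18, 12.19 and 12.15 in the DMSO arrays. Its groups were apart, and it rose 1.26-fold (log2 change 0.34 ± 0.065 (SE), adjusted p 0.00716 in limma). The chaperones of the alpha ring act as pairs, PSMG1 with PSMG2 and PSMG3 with PSMG4, and within each pair the members had changes of opposite sign. PSMG1 measured 10.47, 10.45 and 10.42 in the BIX01294 arrays, against 9.96, 10.15 and 10.06 in the DMSO arrays, a 1.31-fold rise (adjusted p 0.00343 in limma). PSMG2 measured 11.12, 10.93 and 10.91 in the BIX01294 arrays, against 11.13, 11.14 and 11.12 in the DMSO arrays. Every BIX01294 value of PSMG2 was lower, although that of replicate 1 rounds to the lowest DMSO value, and the change of -0.14 ± 0.068 (SE) did not pass (adjusted p 0.187 in limma). PSMG3 measured 10.40, 10.25 and 10.13 in the BIX01294 arrays, against 9.91, 9.80 and 9.86 in the DMSO arrays, a 1.32-fold rise (adjusted p 0.00705 in limma). PSMG4 measured 7.01, 7.02 and 6.96 in the BIX01294 arrays, against 7.13, 7.10 and 7.38 in the DMSO arrays, a change of -0.21 ± 0.081 (SE) that did not pass (adjusted p 0.107 in limma). DMSO replicate 3 was the highest array for PSMG4. No test of the difference within these pairs is given, because the contrast was noticed in these values. Among the chaperones of the base, PSMD9 rose 1.16-fold (adjusted p 0.0272 in limma). It lost its call without any one array except DMSO replicate 1 (adjusted p 0.0577 to 0.0825). PSMD5 differed by 0.16 ± 0.057 (SE) without overlap (adjusted p 0.0793 in limma). PSMD10, also called gankyrin, differed by -0.03 ± 0.051 (SE), with overlapping groups and a 95% interval of -0.15 to 0.09.

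NFE2L1 moved against the subunits. It measured 10.81, 10.88 and 10.94 in the BIX01294 arrays, against 11.28, 11.27 and 11.22 in the DMSO arrays. All treated arrays were lower, and the fall was 1.30-fold (log2 change -0.38 ± 0.058 (SE), adjusted p 0.00271 in limma). NFE2L1 and PSME1 were the 2 members that fell. The arrays report its RNA; its cleavage, stability and place in the cell, at which it is mainly controlled, were not measured. Of 12 measured genes of a list of 14 that process NFE2L1 or partner with it, 5 rose and 1 fell. Over all genes 12.9% rose and 10.7% fell. VCP, the ATPase that extracts NFE2L1 and other proteins from the membrane of the endoplasmic reticulum, measured 11.29, 11.29 and 11.22 in the BIX01294 arrays, against 10.67, 10.66 and 10.58 in the DMSO arrays. It was the largest change on that list, a 1.55-fold rise (log2 change 0.63 ± 0.055 (SE), adjusted p 0.000234 in limma). Both subunits of the adaptor that brings VCP to ubiquitinated substrates rose with it, UFD1 1.47-fold and NPLOC4 1.31-fold. MAFG, a small MAF partner for DNA binding, and the deglycosylating enzyme NGLY1 were the other genes of the list that rose, by 0.39 ± 0.073 (SE) and 0.29 ± 0.087 (SE). NGLY1 lost its call without any one array except DMSO replicate 2 (adjusted p 0.0500 to 0.138). NFE2L2, the related factor NRF2, fell, with a change of -0.26 ± 0.061 (SE) (adjusted p 0.0159 in limma). It lost that call without BIX01294 replicate 2 or DMSO replicate 2 (adjusted p 0.0536 and 0.0593).

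Proteins that bind the proteasome or bring ubiquitinated substrates to it rose in 7 of the 14 genes measured on a list of 15, and 0 fell. The shares over all genes were 12.9% higher and 10.7% lower. They were 27% and 13.2% among the 4601 genes of highest mean level. Whether the count of this list differs from these shares was not tested. ADRM1, a ubiquitin receptor of the cap whose symbol is outside the naming rule, measured 11.53, 11.40 and 11.30 in the BIX01294 arrays, against 10.70, 10.74 and 10.67 in the DMSO arrays. It rose 1.64-fold (log2 change 0.71 ± 0.070 (SE), adjusted p 0.000358 in limma), more than any of the 47 members. The proteasome-bound deubiquitinase USP14 rose 1.28-fold, and the thioredoxin-like protein TXNL1, which binds the cap, 1.26-fold. SEM1, the small lid subunit outside the naming rule, measured 10.82, 10.69 and 10.68 in the BIX01294 arrays, against 10.67, 10.72 and 10.68 in the DMSO arrays. Its groups overlapped, and its change of 0.04 ± 0.059 (SE) did not pass (adjusted p 0.679 in limma). Of 3 measured genes among 6 for ubiquitin and its E1 enzymes, 1 rose. That count is too small to set apart from the 12.9% of all genes that rose. UBA6, the second E1 enzyme, changed by 0.24 ± 0.061 (SE) (adjusted p 0.0254 in limma). UBA6 lost that call without BIX01294 replicate 1 or 3 or DMSO replicate 2 or 3 (adjusted p 0.0659 to 0.0921). The polyubiquitin gene UBB differed by -0.03 ± 0.053 (SE), with a 95% interval of -0.15 to 0.09.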

How the data were processed

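Per the labels' protocols, total RNA was isolated in Trizol and end-labelled with terminal transferase; each of the 6 samples has 1 array. The deposited table holds a log2 expression value per transcript cluster and array, with the log2 scale read from the values (1.93 to 14.93, array medians 6.94 to 7.01). Partek is the only tool in the submitters' processing notes; how background was corrected, arrays normalized and probes summarized is not given in the sources used here, and a shift shared by most genes would be lost if arrays were scaled to each other. There is no detection call, and precision is limited by having 3 arrays per group.

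Rows with exactly 1 symbol (19158 of 32321) were kept, symbols were updated by Entrez identifier to RefSeq (GRCh38.p14; 19128 rows matched), and the row with the highest mean was used per gene. Limma 3.58.1 in R 4.3.3 fitted treatment as the only term; the fit was tested on simulated data. No array was a copy: 14 to 40 rows were identical between any 2 arrays. Alternatives were quantile normalization, centring, a filter on low values (lower quartile of gene means), the mean of all rows, array weights, robust estimation with an intensity trend, the replicate block, all rows with a symbol, and leaving out each array. The replicate numbers were not taken as pairs. Named with values were NFE2L1, POMP, PSMB5 to PSMB10, the called members (up to 4 per role group and direction, here all) and the other members where they describe a role group; of each other list, up to 3 called genes per direction by size of change, and further genes picked with their values in view. The members and lists were chosen with earlier results of these data known.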

Additional observations from a re-analysis of the deposited data

Results flagged for a closer look

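The dimmer row of PSMC6, which the comparison does not use, was also higher in BIX01294: it measured 9.96, 9.79 and 9.88 in the BIX01294 arrays, against 9.52, 9.55 and 9.43 in the DMSO arrays. Its change of 0.38 had an adjusted p of 0.0163 when limma was fitted to all 32321 rows, and is smaller than the 0.57 of the row used. By its number (7974380) the dimmer row lies among the rows of the other chromosome 14 members, the chromosome of PSMC6. The row used (8150870) does not. Which row better reports the gene was not tested.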

How the results depend on the processing

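The counts of members called stayed within 1.5 times of 29 higher and 2 lower in every alternative but one: with an intensity trend and robust estimation 4 members were lower. Leaving out each array in turn gave 22 to 26 higher and 2 to 3 lower, and the 8 other alternatives 25 to 33 higher and 2 to 4 lower. The median change of the members ran from 0.22 to 0.28. Of the 31 called members, 24 (22 higher and 2 lower, NFE2L1 and PSME1) stayed called under each of the 14 alternatives in which they were tested. PSMA6, PSMB1, PSMB6, PSMD2, PSMD8, PSMD9 and PSME4 lost it in at least 1, and PSMB3, PSMB4, PSMB7, PSMD5, PSME2 and PSMG2 gained one in at least 1; the cause was not tested. With the replicate number as a block, 25 members were higher and 2 lower: PSMB1, PSMD2, PSMD9 and PSME4 lost their calls (adjusted p 0.0500 to 0.0705 in limma), and so did UBA6 and NGLY1 (adjusted p 0.0565 and 0.0712 in limma). Deviations from the group means correlated at 0.19, -0.18 and 0.05 between BIX01294 and DMSO arrays of the same number, and nothing in the labels ties samples of the same number to each other. No scaling moved the median of all genes by more than 0.033. Over all genes 54.7% of the calls were higher, against 49.7% after quantile normalization and 64.3% after centring; the members gave 28 higher and 3 lower, and 32 higher and 2 lower, under these 2 scalings.

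Sign changes were limited to named genes near 0 that passed the test in no alternative. After quantile normalization SEM1 differed by -0.0050. After centring, PSMB9 differed by 0.012, PSMD10 by 0.0023 and the ubiquitin gene UBB by 0.0018, and with array weights PSMB10 differed by -0.0098. Leaving out each array in turn, SEM1 ran from -0.0015 to 0.065 (below 0 without BIX01294 replicate 1), PSMA2 ran from -0.0041 to 0.053 (below 0 without BIX01294 replicate 1), PSMB9 from -0.13 to 0.086 (above 0 without BIX01294 replicate 1), PSMB10 from -0.075 to 0.058 (below 0 without BIX01294 replicate 2 or DMSO replicate 2 or 3) and PSMB11 from -0.032 to 0.077 (below 0 without BIX01294 replicate 2 or DMSO replicate 1). The filter on low values left out PSMA8, PSMB8 and PSMB11, which lay below the lower quartile of every array, so changes in them could be missed. The alternatives for the other gene lists were added after seeing the data; the filter on low values gave no value for genes it left out.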
